A study of Saccharomyces cerevisiae with 30 samples.

Results

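The 10 genes described here encode aminoacyl-tRNA synthetases of yeast mitochondria. They are MSE1 (glutamate), MSF1 (phenylalanine), NAM2 (leucine), DIA4 (serine), MSM1 (methionine), MSR1 (arginine), MST1 (threonine), MSW1 (tryptophan), MSY1 (tyrosine) and ISM1 (isoleucine), each named here with the amino acid it loads. They were taken by gene name from the 5890 genes listed in every library, and all 10 were found in all 30 libraries and passed the filter on low counts. A synthetase joins an amino acid to its tRNA. Yeast mitochondria translate a few membrane proteins from their own genome, and the synthetases that serve this translation are encoded in the nucleus, made on cytosolic ribosomes and imported, usually through an N-terminal presequence read by receptors of the outer membrane such as Tom20. The signal recognition particle (SRP) in contrast recognises the signal sequences and membrane segments of secretory proteins and brings their ribosomes to the endoplasmic reticulum (ER).

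The study asked how depletion of SRP alters which ribosomes reach which membrane, by proximity-specific ribosome profiling in Saccharomyces cerevisiae. A biotin ligase (BirA) fused to a membrane protein, the bait, biotinylated nearby ribosomes that carried an AVI acceptor tag on both copies of Rpl16 (RPL16a-HA-TEV-AVI and RPL16b-HA-TEV-AVI), and footprints of the streptavidin pulldown were sequenced beside those of the input. Every strain also carried srp72-AID-HA, the SRP subunit Srp72 with an auxin-inducible degron, and OsTIR1, which directs its degradation once auxin is added, so the 0 min samples carried the degron without auxin. The 30 libraries formed 15 input and pulldown pairs in 5 series, with auxin at 500 µM. Sec63-mVenus-BirA (beside the ER translocon) with cycloheximide and a BirA-mVenus fusion to the UBC6 tail anchor (ER surface), also with cycloheximide, were sampled after 0, 15, 30 and 60 min. Sec63-mVenus-BirA without cycloheximide was sampled after 0, 30 and 60 min. The mitochondrial outer membrane baits Tom20-mVenus-BirA and Om45-mVenus-BirA, both with cycloheximide, were sampled after 0 and 30 min. Where used, cycloheximide (100 µg/ml, 2 min) arrested the ribosomes before biotin was added. Biotin (10 nM) was present for 2 min, or for 1 min in the series without cycloheximide. The Ubc6 bait was driven by the SEC63 promoter at his3, whereas the other ligases were fused to genes at their own loci. The Tom20 pairs came from W303 cells and all other pairs from S288C, so bait and strain cannot be told apart there. No condition had more than 1 pair, so no p-value measures the spread between cultures of a condition. For changes with auxin and for mitochondrial against ER baits, the series served as the repeats. Changes of enrichment and differences between single series came from a fit in which all 30 libraries shared 1 estimate of the spread. As 11 pairs were at ER baits and 4 at mitochondrial baits, standard errors at mitochondrial baits in that fit rest mostly on ER pairs. Where 1 series was compared with another, each side was 1 series and its auxin times served as the repeats.

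Inputs held 2041786 to 113497242 counts in listed genes and pulldowns 4863970 to 103495224. The shallowest library was the Ubc6 input at 0 min, in which the synthetase messages had 34 (MSR1) to 50 (ISM1) counts. The Sec63 pulldown at 0 min with cycloheximide stood apart in composition, with a trimmed-mean (TMM) scaling factor of 0.433 against 0.628 to 1.53 elsewhere. As a check of the baits, 10 ER marker genes had a median log2 enrichment of 4.23 in the Sec63 pair with cycloheximide, 3.09 in the Ubc6 pair and 2.22 in the Sec63 pair without cycloheximide at 0 min, against -0.76 in the Tom20 pair and -0.01 in the Om45 pair. Auxin removes the Srp72 protein, so footprints on SRP72 do not check the depletion.

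Per unit of length, input footprints on all 10 messages lay below the median gene, at the 21.1 (ISM1) to 47.9 (MST1) percentile. On the authors' per-length scale (RPKM, median of the 15 inputs) the order was MST1 at 21, MSW1 at 20.3, MSF1 at 15.6, MSY1 at 14.2, MSM1 at 10.3, DIA4 at 9.3, MSE1 at 9.23, NAM2 at 8.84, MSR1 at 8.12 and ISM1 at 7.18. MST1 was among the top 2 in 15 of 15 inputs and MSW1 in 11, and ISM1 was among the last 2 in 14, whereas the ranges of neighbours in this order overlapped (9.14 to 33.8 RPKM for MST1, 8.67 to 27.5 for MSW1, 4.9 to 14.6 for MSR1 and 4.68 to 12.4 for ISM1). The median of the 10 was 9.81 RPKM, against 245 RPKM for 17 genes listed as cytosolic synthetases. The median was 218 RPKM for 4 synthetases that 1 gene makes for both compartments (ALA1, GRS1, HTS1 and VAS1). In sacCer3 coordinates none of the 10 overlaps another annotated gene. MSM1 lies on chromosome VII (840824 to 842551, YGR171C), DIA4 on chromosome VIII (127780 to 129120, YHR011W) and NAM2 on chromosome XII (882067 to 884751, YLR382C).

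Before auxin, ribosomes translating each of the 10 messages were enriched at mitochondria. Expressed as log2(pulldown/input), where a value of 1 is a 2-fold enrichment relative to the TMM centre, enrichment was highest for MSE1, at 4.03 in the Tom20 pair and 4.26 in the Om45 pair, against -0.71 (Sec63 with cycloheximide), -0.38 (Ubc6) and -0.50 (Sec63 without cycloheximide). NAM2, whose product also acts in splicing of mitochondrial introns, had 3.71 and 3.88 at mitochondria against -0.54, -0.93 and -0.79 at the ER in the same order. ISM1 had 3.87 and 3.85 against -0.97, 0.35 and -0.70. In these 3 genes both mitochondrial pairs lay far above the 3 ER pairs, whose own values were close to or below the centre. The lowest mitochondrial values at 0 min were 3.28 (MSM1 at Tom20) and 3.30 (MSR1 at Om45).

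In the fit of the 0 min pairs (edgeR quasi-likelihood test, adjusted p over 5286 genes), mitochondrial enrichment exceeded ER enrichment for 10 of 10 synthetases, where 10.8% of all tested genes were higher and 9.48% lower. The difference was 4.62 ± 0.28 (SE) for MSE1, 4.48 ± 0.31 for NAM2, 4.26 ± 0.46 for ISM1, 4.02 ± 0.27 for MSF1 and 3.98 ± 0.30 for MSY1. It was 3.87 ± 0.27 for DIA4, 3.79 ± 0.34 for MST1, 3.72 ± 0.42 for MSW1 and 3.61 ± 0.37 for MSR1, with edgeR adjusted p of 0.00154 to 0.00279 for these 9 genes. MSM1 had the smallest difference, 2.35 ± 0.41 (edgeR adjusted p = 0.0135). The median of the 10 was 3.92 on the log2 scale and that of all genes 0.05. Mitochondrial enrichment taken alone passed for 10 of 10 (3.58 to 4.41, background 11.6% higher). The other 9 differences passed under each of 12 alternatives, whereas that of MSM1 missed the threshold (edgeR adjusted p up to 0.139) with pairs centred on cytosolic reference genes and when the Ubc6, Tom20 or Om45 series was left out.

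**Figure D1:**
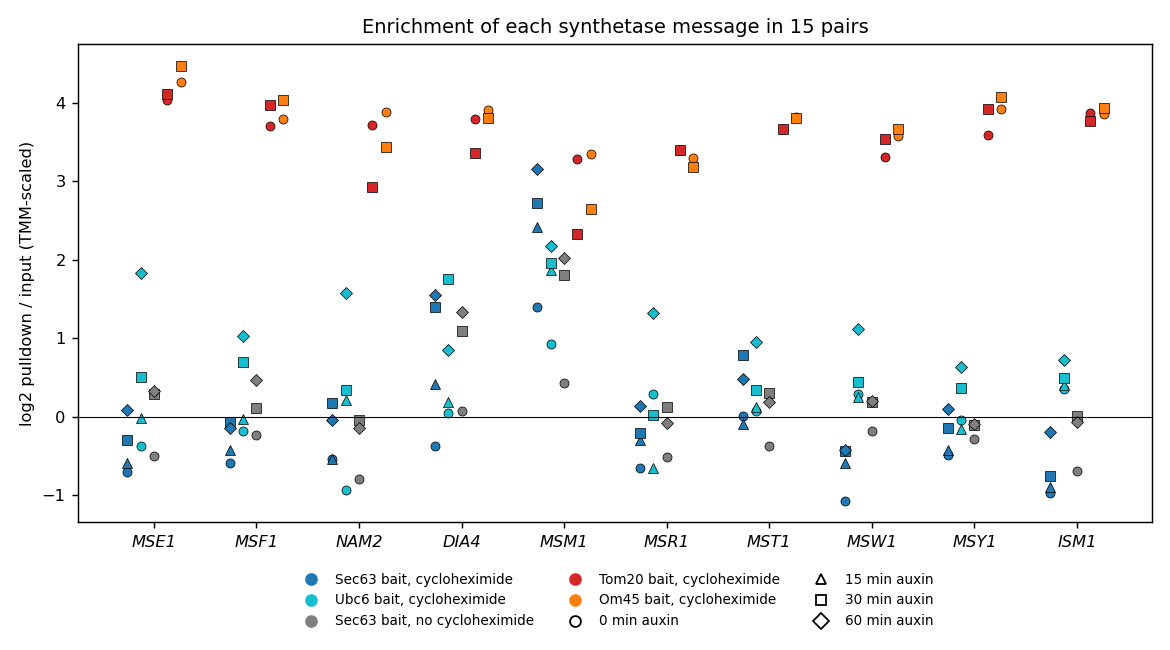
Log2 pulldown over input (vertical axis) for each of the 10 synthetase messages in each of the 15 pairs; colour gives the bait and cycloheximide, the symbol gives the auxin time, and each point is 1 pair with no error bar. The 4 mitochondrial pairs lie above the 11 ER pairs for 9 genes, and the ranges overlap for MSM1 (0.43 to 3.15 at the ER, 2.32 to 3.35 at mitochondria). The share of all genes with such a separation was not counted.

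MSM1, the methionyl-tRNA synthetase, was the exception at the ER. Its log2 enrichment at 0 min was 1.40 at Sec63 with cycloheximide, 0.92 at Ubc6 and 0.43 at Sec63 without cycloheximide, and it was the highest of the 10 in all 11 ER pairs. At mitochondria it ranked 10 of 10 in 3 pairs and 9 of 10 in the Om45 pair at 0 min. Its fitted ER enrichment at 0 min was 1.23 ± 0.27 (edgeR adjusted p = 0.027), the only call among the 10, where 15.2% of all genes were called higher and 0.889% lower. That call was lost with library totals in place of TMM (log2 0.17) and when any one of the 4 series with cycloheximide was left out. The other 9 had fitted ER enrichments of -0.42 (NAM2) to 0.24 (DIA4), none of which passed, and under library totals 7 of the 10 were called below the centre, as were 3158 of all 5286 genes.

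Synthetases of the same compartment showed the same split. The 4 further mitochondrial synthetases were higher at mitochondria in 4 of 4 cases, with log2 differences of 3.96 ± 0.32 for MSK1 (lysine), 3.93 ± 0.62 for MSD1 (aspartate), 3.64 ± 0.53 for AIM10 (proline) and 2.91 ± 0.34 for SLM5 (asparagine). The 4 dual-localised synthetases passed in 4 of 4 cases at smaller values, with a median of 1.27 and the largest, 1.68 ± 0.32, for VAS1. Of the 17 genes on the cytosolic synthetase list 3 passed, CDC60, CRS1 and ILS1, and the list's median was 0.28. Whether each gene on that list serves the cytosol alone was not tested. CRS1 had 1.87 and 2.01 in the Tom20 pairs and 1.69 and 2.00 in the Om45 pairs, above each of the 4 dual-localised genes.

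Set against the cytosolic enzyme for the same amino acid, every mitochondrial synthetase had the larger difference, by 1.15 (NAM2 over CDC60) to 4.20 (MSE1 over GUS1) on the log2 scale. These gaps were not themselves tested. CDC60, the cytosolic leucyl-tRNA synthetase, had 2.86 and 2.90 in the Tom20 pairs and 2.16 and 2.44 in the Om45 pairs, and -1.31 to -0.07 in the 11 ER pairs. Its mitochondrial minus ER difference of 3.33 ± 0.42 (edgeR adjusted p = 0.00386) exceeded that of MSM1 in size, and leucine was the amino acid for which both synthetase messages were strongly enriched at mitochondria. ILS1, the cytosolic isoleucyl-tRNA synthetase, had 1.59 ± 0.30 against 4.26 ± 0.46 for ISM1. The remaining 8 cytosolic counterparts lay between 0.09 (FRS2) and 0.69 (WRS1) and did not pass.

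**Figure D2:**
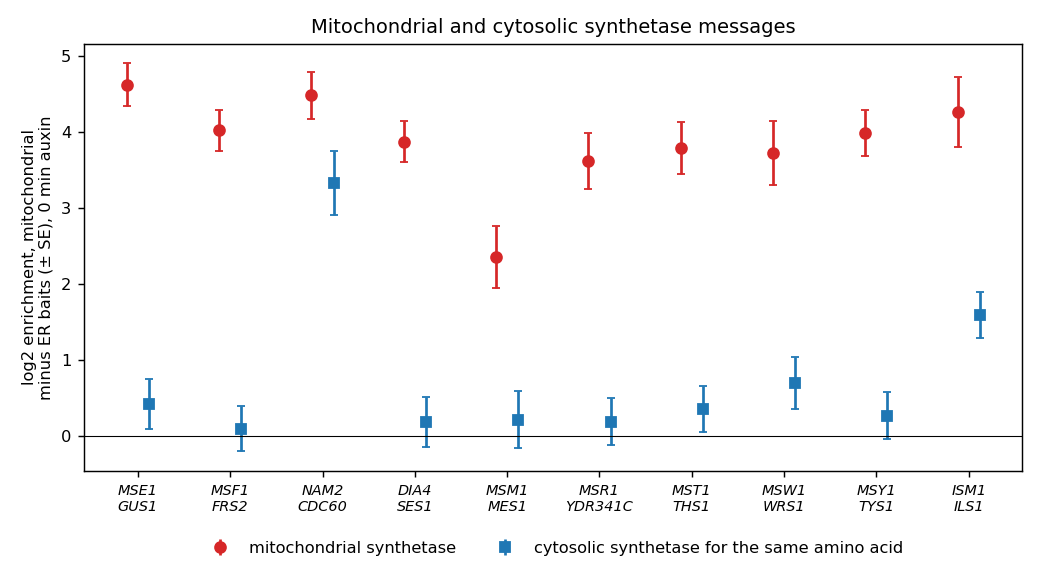
Mitochondrial minus ER log2 enrichment at 0 min auxin (vertical axis, edgeR estimate ± SE) for each mitochondrial synthetase (circles) beside the cytosolic synthetase for the same amino acid (squares). MSE1 is highest at 4.62 and MSM1 lowest of the mitochondrial enzymes at 2.35; CDC60, at 3.33, stands above the other cytosolic enzymes.

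The wider machinery of mitochondrial translation was described through lists chosen by function. The 8 translation factors passed in 8 of 8 cases with a median of 4.07, including 4.02 ± 0.32 for the elongation factor TUF1 and 4.52 ± 0.64 for the initiation factor IFM1. Of the genes that finish charged tRNAs, FMT1, which formylates the initiator methionyl-tRNA, had 3.88 ± 0.33. HER2 and PET112, subunits of the amidotransferase that makes mitochondrial glutaminyl-tRNA from a glutamyl-tRNA, had 3.32 ± 0.24 and 1.95 ± 0.28. GTF1, the third subunit, had 1.07 ± 0.48 and did not pass. Large-subunit proteins of the mitochondrial ribosome passed in 16 of 32 cases with a median of 1.16, and 13 of 13 matrix enzymes of the citric acid cycle passed with a median of 2.77. The 10 synthetases therefore lay nearer to the translation factors than to the ribosomal proteins, a comparison of medians that was not tested.

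The profiles of the synthetases over the 15 pairs were alike, apart from MSM1. Pearson's r of each gene with the median profile of the 10 was 0.934 (DIA4) to 0.996 (MSF1) for 9 genes and 0.585 for MSM1; the points share libraries, and the gap between mitochondrial and ER baits sets most of each value. The 5 of 5276 other genes most like the median profile were ARH1, SHM1 and IMO32 (r = 0.997 each) and CYT1 and MRPS28 (r = 0.996 each), over the same 15 pairs. Gene length and mitochondrial enrichment at 0 min had a Pearson's r of 0.16 and a Spearman's rho of 0.18 over the 10 genes, as a description.

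After 30 min of auxin, MSM1 had risen at ER baits and fallen at mitochondrial baits. At Sec63 with cycloheximide its log2 enrichment was 1.40, 2.42, 2.72 and 3.15 after 0, 15, 30 and 60 min. At Ubc6 it was 0.92, 1.87, 1.96 and 2.17 at the same times. Without cycloheximide it was 0.43, 1.80 and 2.02 at Sec63 after 0, 30 and 60 min. Each ER series thus began at its lowest value and ended at its highest, and the gene stood at the 79.2 to 82.2 percentile of all genes at 0 min and at the 93.9 to 97.6 percentile at 60 min. At mitochondria it was 3.28 and then 2.32 at Tom20, and 3.35 and then 2.64 at Om45, so both baits showed less enrichment at 30 min. The falls of 0.96 at Tom20 and 0.72 at Om45 were the 57th and the 41st lowest changes of 5286 genes in those series.

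The joint fit put the ER change of MSM1 at 1.27 ± 0.15 after 30 min (edgeR adjusted p = 0.000214) and 1.56 ± 0.15 after 60 min (edgeR adjusted p = 3.04e-05), and both passed in 11 of 11 alternatives. After 15 min the change was 1.03 ± 0.18 with an unadjusted p of 8.82e-05 and an edgeR adjusted p of 0.0709, over 10 alternatives 0.000321 to 0.659. At mitochondria MSM1 fell by 0.84 ± 0.17 on the log2 scale (edgeR adjusted p = 0.0361), where 0.114% of all genes were called lower and 0.927% higher. The direction was the same in 11 of 11 alternatives (-1.03 to -0.71), but the call was kept in 2 of them, with DESeq2 and with a stricter count filter. The other 9 synthetases did not pass at mitochondria, with changes of -0.61 (NAM2) to 0.25 (MSF1). The difference between the ER and the mitochondrial change was 2.11 ± 0.23 for MSM1 (edgeR adjusted p = 0.000212) and passed in 10 of 10 alternatives.

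**Figure D3:**
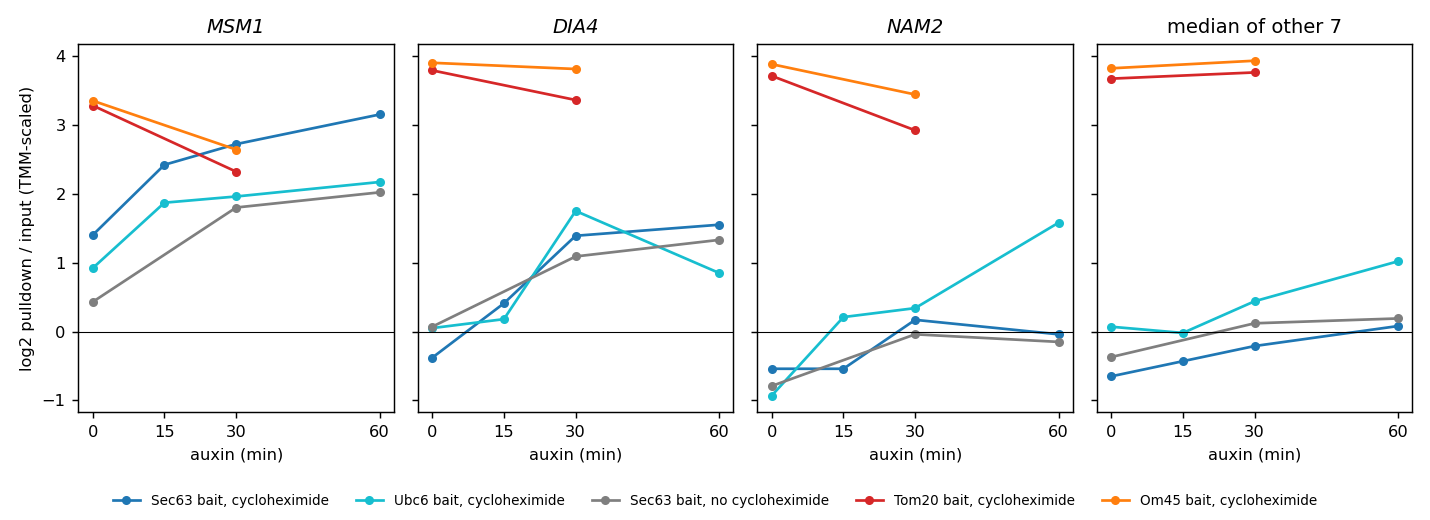
Log2 pulldown over input (vertical axis) against minutes of auxin (horizontal axis) for MSM1, DIA4, NAM2 and the median of the other 7 synthetases; each line is 1 series and each point 1 pair. MSM1 climbs in the 3 ER series and drops at Tom20 and Om45, to 2.32 and 2.64.

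DIA4, the seryl-tRNA synthetase, was the other message with a large change at the ER. Its log2 enrichment was -0.38, 0.41, 1.39 and 1.55 over the 4 times at Sec63 with cycloheximide, 0.05, 0.18, 1.75 and 0.85 at Ubc6, and 0.07, 1.09 and 1.33 over the 3 times at Sec63 without cycloheximide. All 3 ER series were higher at 30 and 60 min than at 0 min, and at Ubc6 the 60 min value lay below the 30 min value. At mitochondria it was 3.79 and 3.36 at Tom20 and 3.90 and 3.81 at Om45, so the baits were lower by 0.43 and 0.10. Before auxin its ER values lay near the centre, whereas those of MSM1 lay above it. The fitted ER change was 1.48 ± 0.25 after 30 min (edgeR adjusted p = 0.00118) and 1.33 ± 0.25 after 60 min (edgeR adjusted p = 0.00167), and the change at mitochondria was -0.26 ± 0.26, which did not pass. Without the Sec63 series with cycloheximide the ER change was no longer called (edgeR adjusted p = 0.0699 at 30 min and 0.363 at 60 min). The ER change exceeded the mitochondrial change by 1.74 ± 0.36 (edgeR adjusted p = 0.00634), a call lost without that series or without the Tom20 series.

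Among the remaining synthetases the changes at the ER were smaller. After 30 min 3 of 10 rose (MSM1, DIA4 and MST1 at 0.59 ± 0.18, edgeR adjusted p = 0.0364), where 8.85% of all genes were called higher and 11.5% lower. The other 7 had changes of 0.28 (MSR1 and MSY1) to 0.79 (NAM2) and did not pass, and the median of the 10 was 0.57 beside 0.15 for all genes. The call for MST1 was kept in 5 of 11 alternatives. NAM2 also differed between compartments: its change was 0.79 ± 0.30 at the ER and -0.61 ± 0.30 at mitochondria, neither of which passed alone, and the difference of 1.40 ± 0.42 passed narrowly (edgeR adjusted p = 0.049, kept in 4 of 10 alternatives). For the difference of both changes the background was 2.59% higher and 10.6% lower, and 3 of 10 synthetases were called higher. Such a response was not particular to the 10. Of the 4 further mitochondrial synthetases, 2 were called higher for this difference (0.15 to 1.19 over the 4). At the ER after 30 min 1 of these 4 was called higher (0.24 to 1.04), and at mitochondria 0 were called (-0.60 to 0.29). MSK1 had -0.24, -0.09 and -0.52 at 0 min and 0.90, 1.12 and 0.31 at 30 min in the 3 ER series.

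**Figure D4:**
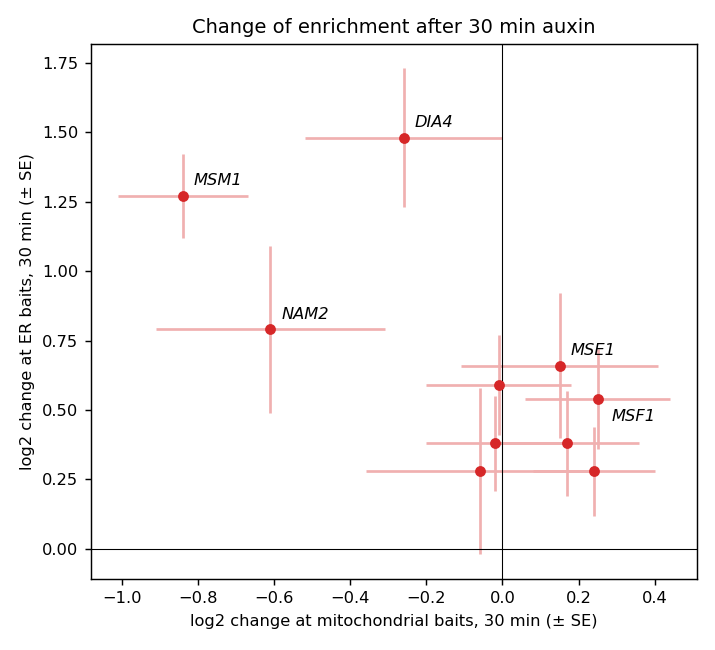
Change of log2 enrichment after 30 min of auxin at mitochondrial baits (horizontal axis) against that at ER baits (vertical axis) for the 10 synthetases, edgeR estimates ± SE. MSM1, at -0.84 and 1.27, and DIA4, at -0.26 and 1.48, stand apart from the others, whose ER changes are 0.28 to 0.79.

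After 15 min 0 of 10 passed by edgeR, as did 0% of all genes; MSM1 alone had an unadjusted p below 0.05, and DESeq2 called 1 of the 10. After 60 min, when only ER baits were sampled, 9 of 10 rose where 23.1% of all genes were called higher and 12.3% lower. Besides MSM1 and DIA4 these were MSE1 (1.18 ± 0.26), NAM2 (1.02 ± 0.30), MSF1 (0.73 ± 0.18), MST1 (0.63 ± 0.18), ISM1 (0.62 ± 0.17), MSW1 (0.60 ± 0.19) and MSY1 (0.45 ± 0.15); MSR1 had 0.72 ± 0.30 and did not pass. The median of the 10 was 0.73 beside 0.29 for all genes, and with pairs centred on cytosolic reference genes these medians were 0.29 and -0.16. That scaling left 2 of the 10 called (MSM1 and DIA4) and 127 of 5286 genes in all called higher, against 1220 with TMM. DESeq2 left 4 of the 10 and 341 genes, and the fit without the Sec63 series with cycloheximide left 1 (MSM1) and 64 genes. Leaving out the Ubc6, Tom20 or Om45 series left 3 each (MSM1, DIA4 and MSE1) and 160, 275 and 274 genes. Of the 17 cytosolic synthetases 16 rose at 60 min with a median of 0.46, and 4 of 4 dual-localised synthetases with a median of 0.61.

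The Ubc6 pair at 60 min stood apart for MSE1 and NAM2. MSE1 had 1.83 there against 0.08 and 0.32 in the Sec63 pairs at 60 min, and NAM2 had 1.58 against -0.04 and -0.15. In the same pair the input level of MSE1 was 8.77 CPM (counts scaled to TMM library size; 13.2 to 22.8 in the other 14 inputs) and that of NAM2 was 9.65 (17.8 to 51.6 in the others), from 90 and 99 counts. The input of that pair therefore moved with these enrichments, and its part in them was not tested.

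The ER baits differed from each other for 6 synthetases. Each comparison between baits or cycloheximide settings set 1 series against another, so auxin times within a series served as the repeats. Over the 4 times with cycloheximide, enrichment was higher at Ubc6 than at Sec63 for ISM1 (1.19 ± 0.14), MSW1 (1.14 ± 0.16), MSE1 (0.91 ± 0.22), MSF1 (0.71 ± 0.15) and MSY1 (0.45 ± 0.13), and lower for MSM1 (-0.71 ± 0.13, edgeR adjusted p = 0.0063), where 6.34% of all genes were higher and 6.28% lower. ISM1 had -0.97, -0.90, -0.76 and -0.20 at Sec63 and 0.35, 0.40, 0.49 and 0.72 at Ubc6, with no overlap. The 10 ER markers had a median of -0.53 in this comparison, on the side of MSM1. Counting values above 0, called or not, 13 of 13 citric acid cycle enzymes (median 0.34) and 16 of 17 cytosolic synthetases (median 0.25) were higher at Ubc6. The same count was 2785 of 5286 for all genes. Of these 2 lists 6 and 5 genes were called higher. The median was 0.01 for large-subunit proteins of the mitochondrial ribosome and 0.03 for all genes. The call for MSY1 was kept in 1 of 8 alternatives, and that for MSM1 was lost with library totals (edgeR adjusted p = 0.05). Between Sec63 with and without cycloheximide, the first minus the second, MSM1 had 0.98 ± 0.14, MSW1 -0.64 ± 0.17 and ISM1 -0.41 ± 0.15, where 19.8% of all genes were higher, 25.8% lower and the median was -0.20. The split depended on the scaling: with centring on cytosolic reference genes 3 of the 10 were higher and 0 lower (median of all genes 0.32), and with library totals 0 were higher and 5 lower (median -0.75). The call for ISM1 was kept in 1 of 8 alternatives, that for MSW1 was lost with the centring, and that for MSM1 was lost with library totals. The biotin pulse differed with cycloheximide in that comparison, so the agents cannot be told apart. Tom20 and Om45 differed for 0 of 10 by edgeR (-0.34 for NAM2 to 0.15 for MSR1, with 0 at an unadjusted p below 0.05 and 0 by DESeq2), where 0.795% of all genes were higher and 0.738% lower.

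In the inputs after 60 min of auxin, footprints rose on 4 of the 10 mitochondrial synthetases, near the background of 30.6% of all genes, and fell on 17 of 17 cytosolic ones, where 28.2% of all genes fell. MST1 had the largest rise. Without the Sec63 series lacking cycloheximide, or without the Om45 series, 1 of the 10 was called at 60 min, and without the Sec63 series with cycloheximide 1 rose and 1 fell. The input level joins message abundance and translation per message, which cannot be told apart here. MST1 had 20, 32.9, 32.4 and 46.5 CPM over the 4 times in the Sec63 strain with cycloheximide, 19.8, 33.0, 31.1 and 37.5 in the Ubc6 strain, and 24.6, 30.5 and 31.1 over the 3 times in the Sec63 strain without cycloheximide. It had 41.5 and 45.8 in the Tom20 strain and 24.6 and 31.5 in the Om45 strain after 0 and 30 min. The 0 min input was the lowest of its series in all 5 series. The change was 0.40 ± 0.12 after 30 min (edgeR adjusted p = 0.0176) and 0.74 ± 0.15 after 60 min (edgeR adjusted p = 0.001), and the 60 min call passed in 10 of 10 alternatives. The 30 min call was lost with library totals, with centring on cytosolic reference genes and without the Ubc6 series (log2 down to 0.23, edgeR adjusted p up to 0.247).

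MSF1 rose by 0.62 ± 0.15 after 15 min (edgeR adjusted p = 0.0194), 0.46 ± 0.11 after 30 min and 0.33 ± 0.13 after 60 min. After 60 min MSR1 (0.51 ± 0.20) and MSW1 (0.40 ± 0.15) also passed, so that 1, 2 and 4 of the 10 rose after 15, 30 and 60 min and 0 fell by edgeR. At 15 min centring on cytosolic reference genes left 0 called, and at 30 min library totals or that centring left 0 higher and 1 lower (DIA4). The 60 min calls of MSF1, MSR1 and MSW1 were kept in 6, 7 and 6 of 10 alternatives. The background rose from 5.24% higher and 8.48% lower at 15 min to 21.8% and 23.9% at 30 min and 30.6% and 28.2% at 60 min, so the share of synthetases that rose was near the background. DIA4 had -0.38 ± 0.15 at 30 min (edgeR adjusted p = 0.0578), the one negative value with an unadjusted p below 0.05. It was also called lower with DESeq2 and without the Ubc6 series.

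The cytosolic list moved the other way: 12 of 17 fell after 30 min and 17 of 17 after 60 min, with a median of -1.17, and the 4 dual-localised synthetases fell at both times (medians of -0.51 and -1.38). The mitochondrial list had a median of 0.26 at 60 min and all genes 0.06, or 0.62 and 0.42 with centring on cytosolic reference genes, a list that fell itself (median -0.96). Between the Sec63 inputs with and without cycloheximide, 0 of 10 passed by edgeR or DESeq2 and 0 had an unadjusted p below 0.05, with values of -0.30 (MSY1) to 0.25 (DIA4), where 1.17% of all genes were higher and 0.284% lower.

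**Figure D5:**
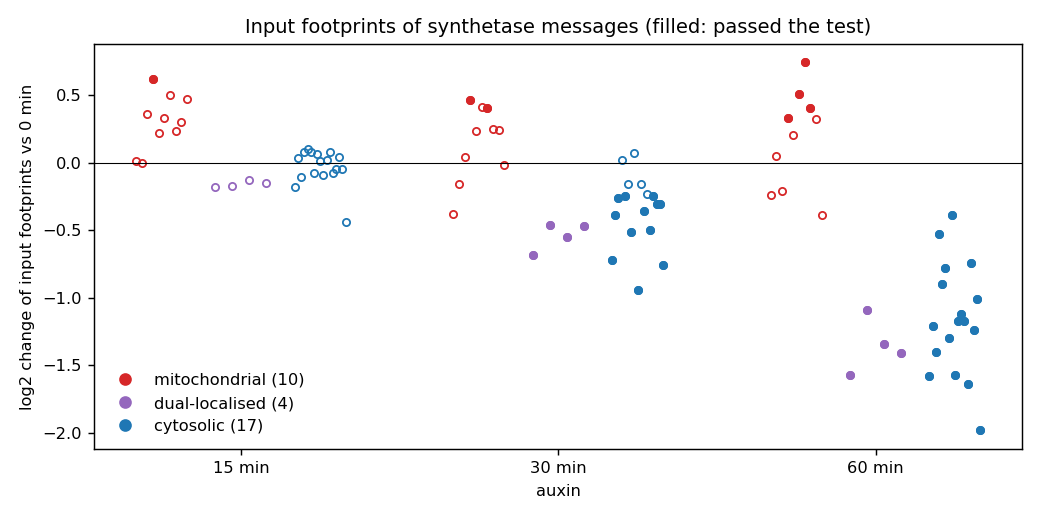
Log2 change of input footprints against 0 min (vertical axis, edgeR estimates without error bars) after 15, 30 and 60 min of auxin for the 10 mitochondrial, 4 dual-localised and 17 cytosolic synthetases; 1 point is 1 gene and filled points passed the test. The mitochondrial genes stay between -0.39 and 0.74 throughout, and at 60 min the cytosolic genes lie between -1.98 and -0.39.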

How the data were processed

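Counts and RPKM per gene were deposited by the authors, 1 file a library, per the file headers. CASAVA, Bowtie 1.1.2, TopHat2 2.1.1 and sacCer3 are named, per the submitters' processing notes; the counting rule is not given in the sources used here. RPKM values, deposited by the authors beside the counts and scaled to gene length and depth, described input levels only (119 genes had none). Counts were tested with edgeR 4.0.16 in R 4.3.3 after TMM scaling and a filter on a mean input count of 20 (5286 of 5890 genes), 2-sided, with Benjamini-Hochberg adjustment at 0.05. The 0 min fit used 10 libraries (3 residual degrees of freedom), the joint fit all 30 with the pair as a block (6) and the input fit 15 (7). Pair values used TMM over 30 libraries and a prior count of 1. Fitted values scale their own libraries and are shifted upward from the pair values at both kinds of bait at 0 min. The median ER enrichment of all genes was 0.00 in the fit and -0.45, -0.28 and -0.11 in the 3 ER pairs. For MSM1 at mitochondria the fit gave 3.58 beside pair values of 3.28 and 3.35. Fitted and pair values of enrichment are therefore not on the same centre. Alternatives were DESeq2 1.42.0, library totals, centring on cytosolic reference genes, other filters, leaving out each series, and no pair block. Counts for 5286 genes were simulated from the means and dispersions of the joint edgeR fit. The rates below thus hold under that model and do not measure the spread between cultures. For mitochondria minus ER at 0 min, 61% of log2 changes of 1 and 88% of changes of 2 were recovered. Recovery was 72% and 94% for the ER change at 30 min and 62% and 96% for the mitochondrial change. It was 97% and 100% for the input change, with 0 of the wrong sign. In the same order, 9.15%, 9.78%, 4.82% and 5.29% of all calls were genes left unchanged, beside a threshold of 0.05.

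Members and lists were chosen with earlier results of these data known. All 10 members are named; of lists of up to 8 genes any member may be named, and of longer lists up to 3 with the largest and smallest mitochondrial minus ER difference. Cytosolic counterparts were taken by amino acid, and the 5 most similar genes by Pearson's r over 15 pairs. Library totals were 2041786 to 113497242 counts in inputs and 4863970 to 103495224 in pulldowns. Sequences are not shown here.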

Additional observations from a re-analysis of the deposited data

Results flagged for a closer look

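For MSM1, DIA4 and NAM2 the response to 30 min of auxin differed between compartments, by a test of the difference itself in the joint edgeR fit. The ER change minus the mitochondrial change was 2.11 on the log2 scale for MSM1 (edgeR adjusted p = 0.000212), with all 3 ER series higher and both mitochondrial series lower than at 0 min. It was 1.74 for DIA4 (edgeR adjusted p = 0.00634) and 1.40 for NAM2 (edgeR adjusted p = 0.049), with the same directions in all 5 series. For NAM2 neither change passed alone.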

How the results depend on the processing

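The mitochondrial minus ER difference and the mitochondrial enrichment at 0 min were called for 9 or 10 of 10 synthetases under every alternative. Over all comparisons, 119 of 545 refits of a call missed the threshold and 1 changed sign, and 43 of 925 refits of values that had not passed did so. With library totals in place of TMM the counts called were 7 for ER enrichment at 0 min (all lower), 0 for the mitochondrial change, 1 and 8 for the ER change at 15 and 30 min, 5 for cycloheximide at Sec63 (all lower) and 1, lower, for the input change at 30 min; of 5286 genes, 3158 were then lower for ER enrichment, 1603 higher for the ER change at 30 min and 3149 lower for cycloheximide. MSR1 (-1.02) and MSY1 (-1.01) then fell below the centre in ER enrichment, and MSY1 was at -0.52 for cycloheximide. Centred on cytosolic reference genes, 0 were called for the mitochondrial change, 2 for the ER change at 60 min, and 0 and 1 (lower) for the input changes at 15 and 30 min, and ISM1 was at 0.11 for cycloheximide. DESeq2 called 1 and 4 for the ER change at 15 and 60 min and 2 and 4 for the input changes at 15 and 30 min. Without the count filter, 0 were called for the mitochondrial change and 5 for the ER change at 60 min; without the pair block, these were 0 and 4. Leaving out each series gave 0 to 1 for ER enrichment at 0 min, 0 to 0 for the mitochondrial change, 0 to 1, 1 to 4 and 1 to 7 for the ER changes at 15, 30 and 60 min, 1 to 3 for the difference of both changes, and 0 to 1, 2 to 4 and 1 to 4 for the input changes at 15, 30 and 60 min. The causes were not tested. A prior count of 5 moved pair values by at most 0.02. Fits were blocked by the pair of input and pulldown, or by series for the inputs; the labels carry no replicate numbers by which to pair samples across groups. Counting error of a pair value was 0.035 to 0.35 on the log2 scale, highest in the Ubc6 series.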

Other observations

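Within the translation factors that serve the same compartment, changes at the ER after auxin were also uneven. TUF1, the mitochondrial elongation factor Tu, had log2 enrichments of -0.14, 0.73, 1.74 and 2.38 at Sec63 with cycloheximide over 4 times, and its fitted ER change was 1.43 ± 0.19 after 30 min (edgeR adjusted p = 0.000295) and 1.91 ± 0.19 after 60 min. Its mitochondrial change was -0.20 ± 0.23 and did not pass. GUF1, a GTPase of mitochondrial translation, fell at mitochondria by 1.28 ± 0.25 (edgeR adjusted p = 0.0269), with -1.25 at Tom20 and -1.31 at Om45, while its ER change at 30 min was 0.27 ± 0.26 and did not pass. With MSM1 it was 1 of 6 genes called lower at mitochondria among 5286. In the inputs at 60 min, PET112 (0.80 ± 0.16), HER2 (0.73 ± 0.15) and MEF2 (0.95 ± 0.12) rose and TUF1 fell by 0.64 ± 0.14 (edgeR), where 30.6% of all genes rose and 28.2% fell. These were 2 of the 4 genes listed with FMT1, and 1 higher and 1 lower of the 8 translation factors.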
